A study of Homo sapiens with 6 samples.

Results

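HuR sites that were found in both replicates and did not meet any background site numbered 41915, out of 4024972 sites of HuR replicate 2 and 10639684 sites in the 6 libraries of the series. They are called member sites below. A site is a stretch of the genome covered by overlapping PAR-CLIP reads, as grouped by the PARalyzer program. A member site had 25 or more reads and 2 or more T-to-C conversion locations in HuR replicate 2. It shared at least 1 bp on the same strand with a HuR replicate 1 site of 2 or more reads. It shared no bp, on either strand, with a site of the background libraries G20, G35 or G45. The members were thus chosen by their reads and conversions, and those values are given below as a description only.

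All libraries came from HEK293, a cell line established from human embryonic kidney, grown with the uridine analog 4SU. Crosslinking was at 365 nm, and RNA was digested with RNase T1, which cuts after G. The HuR cells were a stable line carrying doxycycline-inducible, FLAG-tagged HuR, and the 2 HuR libraries are replicates precipitated with the FLAG M2 antibody. Since HuR was induced from a transgene, its sites are those of HuR at the level of that line. The background libraries came from cells of the same kind expressing FLAG-tagged GFP in place of HuR, taken through the same precipitation, and were cut from the gel at about 20 kDa (G20), 35 kDa (G35) and 45 kDa (G45). Total was RNA of lysates from cells given 4SU and crosslinked in the same way, without precipitation. According to the paper, these lysates were digested with proteinase K and depleted of rRNA before the partial RNase T1 digestion. Each slice and Total is 1 library. Nothing in the labels says that the HuR replicates came from separate cultures.

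HuR, encoded by ELAVL1, binds U-rich and AU-rich stretches of mRNA through RNA recognition motifs. It is best known for binding 3'UTRs and stabilising the mRNA, and it also binds introns of pre-mRNA in the nucleus, where most of it resides. In PAR-CLIP, 4SU crosslinked to protein is read by reverse transcriptase as C, so a conversion marks a crosslinked or 4SU-labelled uridine. Uridines are written as T here.

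Sequences of the member sites with the most reads in replicate 2 show what was selected. For each, 30 bases of GRCh37 around the cluster mode that PARalyzer gave are printed 5′ to 3′ on the strand of the site, with runs of 3 or more T in capitals.
MTHFD2 3'UTR, chr2:74442110-74442139, plus strand: cTTTTgctatatacTTTaacttcattgtta
SLC25A16 intron, chr10:70278513-70278542, minus strand: aTTTgTTTTTTTgagaccgagacctgctct
ADSS2 intron, chr1:244594037-244594066, minus strand: caTTTTTgTTTgcttacacttactactcat
HNRNPC 3'UTR, chr14:21678127-21678156, minus strand: aatgttacacaTTTaTTTTactctaaatga
RLIM 3'UTR, chrX:73809282-73809311, minus strand: agcttcacttaTTTTTTTTaatataagcag
GOPC intron, chr6:117920191-117920220, minus strand: ctattagggctattcTTTTTTaTTTTTaat
The T runs differed in length from site to site. The following sequences are from the member sites with the most reads in replicate 1 in DDX17 and HELLS, and are printed to show that member sites without a long T run also occurred.
DDX17 3'UTR, chr22:38880328-38880357, minus strand: ggtaggtcttcagcataagctgaaatatat
HELLS intron, chr10:96365924-96365953, plus strand: taatgtggactacactcatgtgacaccatg

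Each step of the rule removed sites. Of the sites of replicate 2, 149583 had 25 or more reads, and 137808 of these had 2 or more conversion locations. The latter are called deep sites. A replicate 1 site of 2 or more reads overlapped 68006 deep sites, or 49.3%. A background slice overlapped 26091 of these, or 38.4%, which left the members as 30.4% of all deep sites. G20 overlapped 16550 of the 68006 sites, 7257 of them as the only slice, G45 overlapped 14639 (5563) and G35 10804 (2786), so no single slice accounted for the sites removed. Without the condition on replicate 1, 95785 sites were left, and replicate 1 held to the same minimums in place of replicate 2 gave 330 background-free sites, so the count rested on replicate 2. The following groups of deep sites are used for comparison. They are the 53870 sites with neither background nor a replicate 1 site of 2 or more reads, called unreproduced sites, the 26091 sites with both, called background-overlapped sites, and, where named, all deep sites. Of the unreproduced sites, 24087 did have a replicate 1 site of 1 read, so the name refers to the minimum of 2 reads and not to absence. Sites within 1 library are not replicates, so these groups are compared by their shares with 95% Wilson intervals and without a test. The reads carry no molecular identifiers, and the intervals and floors cover counting error only.

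Member sites had a median of 40 reads in replicate 2, with quartiles of 30 and 59, and reached 1660. Their median length was 32 bp, compared to 31 bp for unreproduced sites and 38 bp for background-overlapped sites. Together they held 6.90% of the reads of replicate 2 and 1.95% of those of replicate 1. In RPM, the reads scaled to 1000000 reads in the sites of the library, the median member stood at 1.25 RPM in replicate 2. A site of 3 reads, the floor used here for a site that was not seen, would stand at 0.0776 RPM in G20, 0.485 RPM in G35 and 0.398 RPM in G45. The median member was therefore 16 times the floor of G20 but only 2.57 times that of G35 and 3.13 times that of G45. On the scale of replicate 1, the median member had 0.315 RPM, which was below the floors of G35 and G45. Only 30.9% of members were above the G35 floor and 44.0% above the G45 floor in replicate 1. At this depth, an absence from G35 or G45 leaves room for background at the level of the HuR signal of replicate 1. The libraries held 6187300 to 38644636 reads in sites.

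HuR replicate 1 gave few reads at most members. Exactly 2 reads, the least the rule accepts, were found at 14773 members (35.2%), 3 to 4 at 14186 (33.8%), 5 to 9 at 9884 (23.6%) and 10 or more at 3072 (7.33%). Across the 41915 members, log2 reads in the replicates had a Pearson's r of 0.324 and a Spearman's rho of 0.259, with no p because members in 1 library share its depth and both values were cut by the rule. The order of the members by reads thus carried over only in part from 1 replicate to the other.

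Conversions in replicate 1 were not used by the rule. The replicate 1 sites at members carried 98.7 conversion events per 100 reads, and 85.9% of these 43516 sites had 2 or more conversion locations. Only 1.25% had no conversion. At the 520688 replicate 1 sites of 2 or more reads that met no deep site, there were 36.6 events per 100 reads, and 29.2% of sites had none. The gap in events was smaller within a class of reads. Among sites of 2 to 4 reads, those at members had 99.8 events per 100 reads and those at no deep site 71.9. In this class, 81.2% (95% Wilson interval 80.7 to 81.6) of those at members had 2 or more locations, compared to 40.5% (40.4 to 40.7) of those at no deep site. Replicate 1 sites at background-overlapped sites did not differ from members at that depth, with 81.2% (80.6 to 81.8) and 100 events per 100 reads. At 5 or more reads they had 61.2 events per 100 reads, compared to 97.7 at members. These values pool reads, and background-overlapped sites reached 131194 reads in replicate 1. The gap was smaller by site. Of these, 92.0% (91.5 to 92.4) had 2 or more locations, compared to 97.8% (97.5 to 98.1) at members, and 1.48% against 0.741% had no conversion. Conversion in replicate 1 thus differed between members and sites that met no deep site of replicate 2. Deep sites were chosen by their conversion locations in replicate 2, so this contrast is not independent of the rule. At low read numbers, conversion did not set members apart from reproducible sites with background, which were chosen by the same minimums.

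The place of the conversions could be compared between the replicates at 10694 of the 41915 members, where PARalyzer called a cluster in both. The mode locations, the points of highest conversion score, were the same base at 10.5% (9.91 to 11.1) and within 3 bases at 31.4% (30.5 to 32.3). The median distance was 8 bases, in sites of a median of 32 bp. Background-overlapped sites with a cluster in both had the same base more often, at 16.6% (15.9 to 17.3). Within 3 bases they had 35.3% (34.4 to 36.2), and their median distance was 9 bases, in sites of a median of 40 bp.

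Introns held most of the member sites. By the midpoint of the site, 30876 members (73.7%, 73.2 to 74.1) were intronic, beside 69.9% of all deep sites. In 3'UTRs lay 6395 members (15.3%, 14.9 to 15.6), beside 15.7% of all deep sites. Both shares were near the shares of deep sites as a whole. Intergenic positions held 5.47%, exons of noncoding transcripts 4.87%, coding sequence 0.372% and 5'UTRs 0.367%. Of the 2293 intergenic members, 548 lay opposite a gene on the other strand.

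The groups on either side of the members differed from them in these shares. Background-overlapped sites had 53.0% in introns, 26.7% in 3'UTRs, 11.8% between genes and 1.36% in coding sequence. Unreproduced sites had 76.8% in introns and 10.4% in 3'UTRs. Members thus had a lower 3'UTR share than the reproducible sites that met background. Their share was higher than that of the background-free sites without a replicate 1 site of 2 or more reads. The share also moved with reads. At 25 to 29 reads in replicate 2, 11.7% of members were in 3'UTRs, and at 100 or more reads, 24.3%. Within each of these read classes, members stayed between the others, with 8.97% and 17.7% in unreproduced sites and 21.1% and 33.4% in background-overlapped sites. In Total, sites of 25 or more reads lay mostly in coding sequence (42.0%) and 3'UTRs (32.2%), and 11.1% were intronic. The region labels deposited with the sites, which use an older annotation and a separate class for repeats, gave 67.8% of members as intron, 12.1% as 3'UTR, 11.3% as intergenic and 6.38% as repeat.

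**Figure D1:**
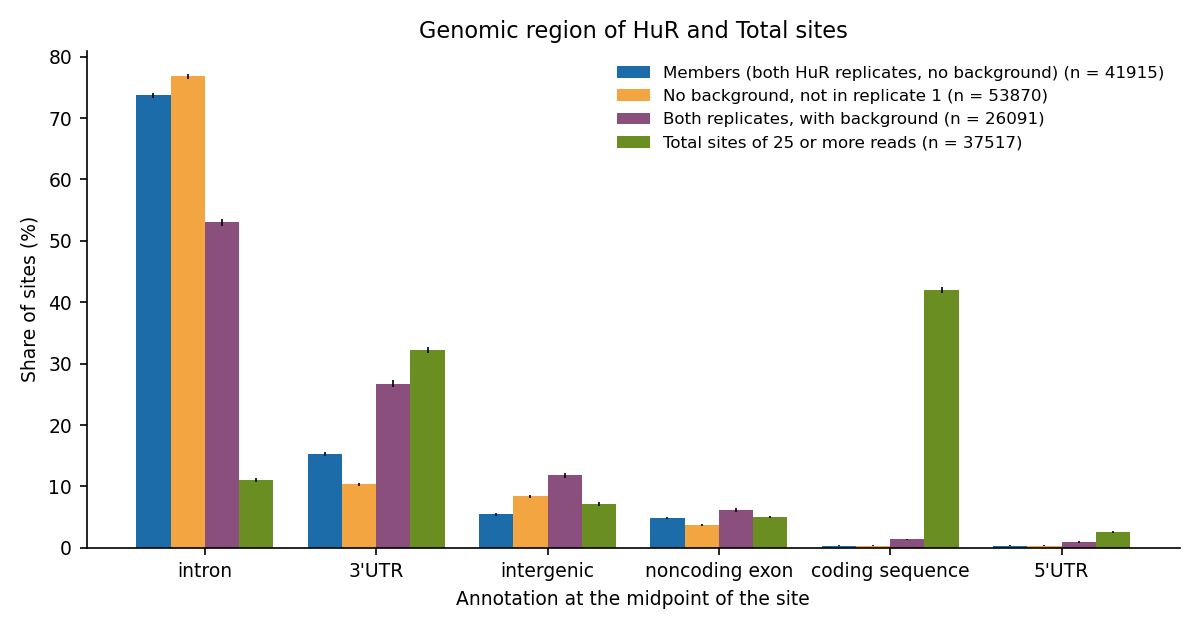
Share of sites in percent (y axis) by annotation at the site midpoint (x axis), for member sites, unreproduced sites, background-overlapped sites and Total sites of 25 or more reads. Bars start at 0 and lines are 95% Wilson intervals. Introns hold 73.7% of members, against 53.0% of background-overlapped sites and 11.1% of Total sites.

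Intronic sites were mostly far from splice sites, in members and the other groups alike. The median distance to the nearest splice site of the host gene was 2728 bp in unreproduced and 2354 bp in background-overlapped sites. Their introns had medians of 13947 and 11673 bp. In members the distance was 2648 bp, in introns of a median of 12466 bp. Within 100 bp of a 3' splice site, where the pyrimidine tract lies, were 448 of 30876 (1.45%, 1.32 to 1.59), and within 100 bp of a 5' splice site 472 (1.53%, 1.40 to 1.67). Unreproduced sites had 2.15% (2.02 to 2.30) near 3' splice sites and background-overlapped sites 1.81% (1.60 to 2.04), both above the members. In 3'UTRs, members were spread over the whole length. The median member lay 47.0% of the way from stop codon to transcript end, 20.3% were in the first 20% of the length and 17.3% in the last 20%. The 3'UTRs concerned had a median length of 3795 bp, compared to 3359 bp at background-overlapped sites.

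Many members had another member or a background site nearby. These distances were not counted for the other deep sites, so they are not given as particular to members. Another member was within 1000 bp on the same strand for 21723 members (51.8%), and the median distance to the nearest other member was 904 bp. A background site was within 100 bp on the strand for 31.8% and within 1000 bp for 87.7%. Of the 39622 members inside a gene, 99.9% had a background site elsewhere in the gene. The members were free of background at the site, not in the transcript.

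T made up a median of 44.1% of the bases of a member site, with quartiles of 37.5% and 50%. Unreproduced sites had a median of 46.4%, background-overlapped sites 42.1% and all deep sites 45.0%. Sites of 25 or more reads had 25% in Total and 26.3% in the slices. The rule asks for conversions, and hence for T, in replicate 2, so Total and slice sites were also held to 2 or more conversion locations. They then had medians of 26.3% and 28.3%, still far below the members. Member sites in introns had 44.9% and those in 3'UTRs 42.0%. Of all members, 1138 (2.72%) had under 25% T, and 2063 (4.92%) had 60% T or more.

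**Figure D2:**
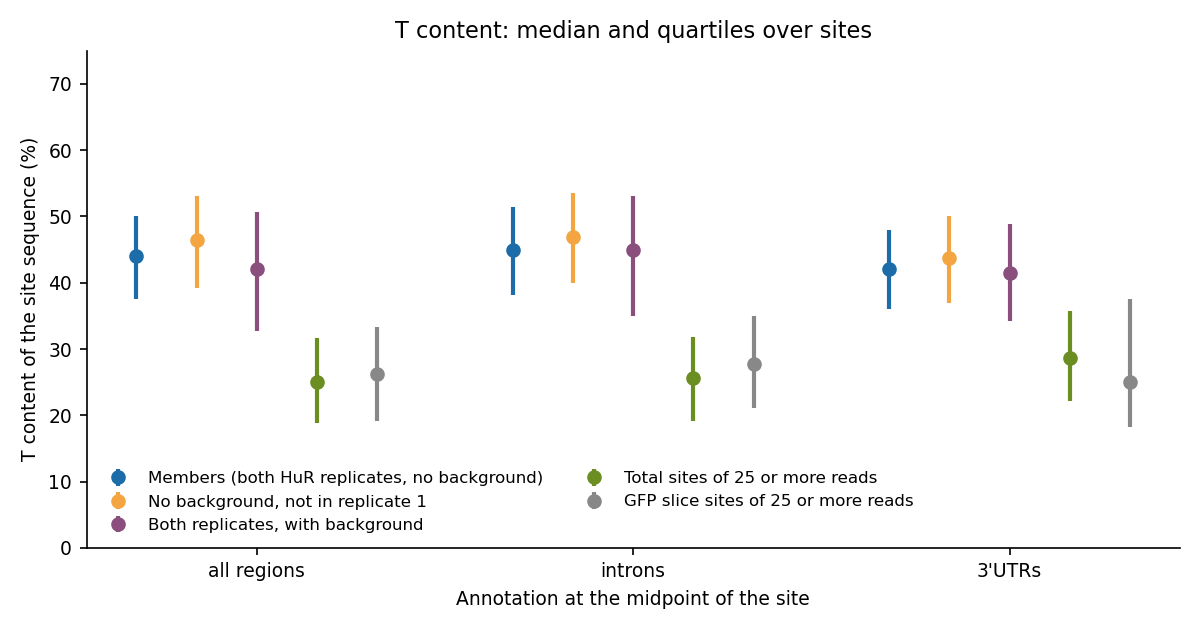
T content of the site sequence in percent (y axis) in all regions, introns and 3'UTRs (x axis). Points are medians over sites and lines reach from the lower to the upper quartile, which show the spread of sites and not an error. Member sites have a median of 44.1% T, next to 46.4% and 42.1% in the other HuR sites and 25% in Total.

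Member sites were richer in C and had shorter T runs than unreproduced sites. Their mean base content was 43.9% T, 24.2% A, 19.1% C and 12.8% G, while unreproduced sites had 46.0% T, 26.5% A, 15.4% C and 12.1% G. The longest T run had a median of 4 bases in members and 5 in unreproduced sites. It was 3 bases or less in 30.3% of members and in 21.8% of unreproduced sites. The last base was G in 98.3% of both groups and in 88.4% of background-overlapped sites, with RNase T1 cutting after G.

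Short motifs were counted on the strand of the site. ATTTA, the core of AU-rich elements, was in 7378 members (17.6%, 17.2 to 18.0), beside 18.8% of all deep sites, 20.4% (20.1 to 20.7) of unreproduced and 16.9% (16.4 to 17.3) of background-overlapped sites. In the 330 background-free sites of replicate 1 held to the same minimums, ATTTA was in 8.79%. The longer TATTTAT, which contains it, was in 3.94% of members and 4.77% of all deep sites. TTTTT was in 39.9% (39.4 to 40.4) of members, beside 47.2% of all deep sites, and was the motif in which the groups differed by the most percentage points, with 50.8% (50.4 to 51.2) of unreproduced and 45.9% (45.3 to 46.5) of background-overlapped sites. Its extension TTTTTTT was in 9.76% of members, 16.3% of unreproduced and 15.5% of background-overlapped sites. TTTGTTT was in 6.91% of members and 7.30% of all deep sites. The Pumilio motif TGTAAATA was in 29 members (0.0692%) and in 0.0682% of all deep sites. GGGGG was in 2.08% (1.94 to 2.22) of members, beside 3.63% of all deep sites, and in 6.22% (5.93 to 6.52) of background-overlapped sites. The lower share of TTTTT in members than in background-overlapped sites did not hold in every read class. It was 34.8% against 32.4% at 25 to 29 reads in replicate 2, 40.6% against 44.3% at 40 to 59 and 52.8% against 52.4% at 100 or more.

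Site lengths differ, so the motifs were counted again in 31 bp windows around the site midpoint. ATTTA was then in 14.3% (13.9 to 14.6) of members and 12.0% (11.6 to 12.4) of background-overlapped sites, and TTTTT in 32.9% (32.5 to 33.4) and 35.6% (35.0 to 36.2). In Total windows of the same length, ATTTA was in 4.45% and TTTTT in 3.60%. In introns, 33.7% of member windows held TTTTT, compared to 46.0% of unreproduced windows, and in 3'UTRs 30.4% compared to 40.8%, so the lower share in members was present in both regions. It was also present in each read class, from 34.8% against 46.9% of sites at 25 to 29 reads to 52.8% against 66.2% at 100 or more reads. The hexamers in most member windows were TTATTT (15.6%), TTTATT (15.0%) and TATTTT (14.8%), each in under 2% of Total windows (1.25%, 1.24% and 1.33%). They were in 17.4%, 16.6% and 16.3% of background-overlapped windows, so they marked HuR sites with and without background alike. Among hexamers in at least 1% of member windows, the ratio to unreproduced windows was lowest for TAAAAA, at 1.5% against 4.95%, and highest for TCACTG, at 1.07% against 0.442%.

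Total held a site on the same strand at 26764 members (63.9%, 63.4 to 64.3), beside 56.1% of all deep sites. Of unreproduced sites 45.7% (45.2 to 46.1) were in Total, and of background-overlapped sites 69.5% (69.0 to 70.1). The share rested on low reads, since 26.1% of members had 5 or more Total reads, summed over the sites that overlapped, and the median of those present was 3 reads. It was highest for members in coding sequence (81.4%, 74.6 to 86.7) and 3'UTRs (81.3%, 80.4 to 82.3) and lower for those in introns (60.3%, 59.7 to 60.8) and between genes (56.8%, 54.7 to 58.8). The 15151 members without a Total site are below what 3 of 35924998 Total reads can show, 0.0835 RPM, and cannot be called absent from the RNA.

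Presence in Total rose with the reads of the site. Of members with 25 to 29 reads in replicate 2, 56.8% (55.8 to 57.8) were in Total, and of those with 100 or more, 77.7% (76.2 to 79.0). Unreproduced sites stayed lower in every read class, from 41.3% (40.6 to 42.0) to 59.3% (55.9 to 62.6). Background-overlapped sites were at 56.5% (54.7 to 58.4) in the lowest class, where their interval overlapped that of the members, and at 81.2% (80.3 to 82.0) in the highest. At equal reads in replicate 2, presence in Total thus separated members from unreproduced sites far more than from sites with background.

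**Figure D3:**
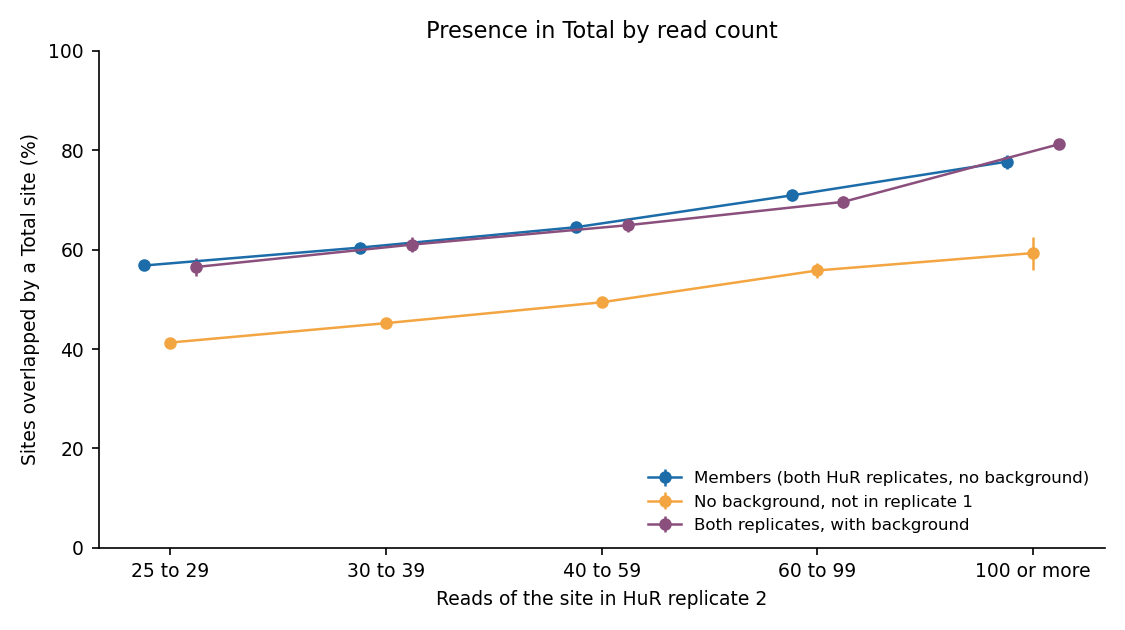
Share of sites overlapped by a Total site on the same strand in percent (y axis) by reads of the site in HuR replicate 2 (x axis), for member, unreproduced and background-overlapped sites. Lines on points are 95% Wilson intervals. Members rise from 56.8% to 77.7%, with unreproduced sites below them in every class.

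Where Total had a site, members had a median of 15.1 times the RPM in HuR replicate 2 that they had in Total. The ratio was 17.2 in introns, 13.4 in noncoding exons, 7.06 in 3'UTRs and 5.22 in coding sequence. Members without a Total site, set against the floor of 3 reads, were at least 13.8-fold higher in replicate 2 at the median. With those at their bound, the median over all members was 14.3, and it was 14.9 in introns and 9.84 in 3'UTRs. These ratios include the minimum of 25 reads that the rule set. Members not in Total were more often intronic (80.9% against 69.5%), had more T (a median of 45.9% against 43.3%) and held TTTTT more often (47.4% against 35.6%) than members in Total. They held ATTTA slightly less often (16.6% against 18.1%). In Total sites at members, 28.4 conversion events were counted per 100 reads, against 98.7 in replicate 1.

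Among single sites, the most reads were in the 3'UTR of MTHFD2, a mitochondrial enzyme of folate metabolism, at chr2:74442110-74442147. It had 1660 reads in replicate 2, 69 in replicate 1 and 181 in Total, or 51.7, 7.24 and 5.04 RPM. An exon of the noncoding gene ENSG00000268205 had 905, 49 and 74 reads. An intronic site of SLC25A16, a mitochondrial carrier, had 778 reads in replicate 2 and 54 in replicate 1, and no Total site. The 3 sites were above 5 RPM in both replicates and ranged from none to 5.04 RPM in Total.

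The other sites named among the 10 with the most reads had fewer reads in replicate 1 than these. The intronic site of ADSS2, an enzyme of AMP synthesis, had 767 reads in replicate 2, 37 in replicate 1 and 15 in Total. The 3'UTR site of HNRNPC, which itself binds U tracts, had 729, 37 and 51. In the 3'UTR of ZFP36L1, which binds AU-rich elements and promotes decay, 722 reads of replicate 2 stood beside 12 of replicate 1 and 75 of Total. The 3'UTR site of the ubiquitin ligase gene RLIM had 709, 3 and 59 reads, and that of the kinase gene PRPF4B had 673, 11 and 25. The intronic site of GOPC, a Golgi protein, had 673 reads in replicate 2 and 3 in replicate 1, and no Total site. Each of the sites named was lower in RPM in replicate 1 than in replicate 2, as a choice by replicate 2 reads favours. RLIM and GOPC, at 0.315 RPM in replicate 1, met the replicate 1 minimum by 1 read.

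The members with the most reads in replicate 1 were other sites. A site in NCL, the nucleolin gene, had 384 reads in replicate 1 and 43 in replicate 2, and none of its replicate 1 reads carried a conversion, while replicate 2 had 47 events there. A 3'UTR site of CELF1, which binds GU-rich elements, had 169 reads and 168 events in replicate 1 and 55 reads in replicate 2. An intronic site of EEF1AKMT2, in a stretch shared by 2 annotated genes, had 150 and 402 reads. DDX17, an RNA helicase gene, had 127 and 40 reads at a 3'UTR site, and HELLS, a chromatin remodeller gene, had 124 and 94 at an intronic site. Their RPM in replicate 1, from 13 to 40.3, was above that in replicate 2, from 1.25 to 12.5, at each of the 5 sites.

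**Figure D4:**
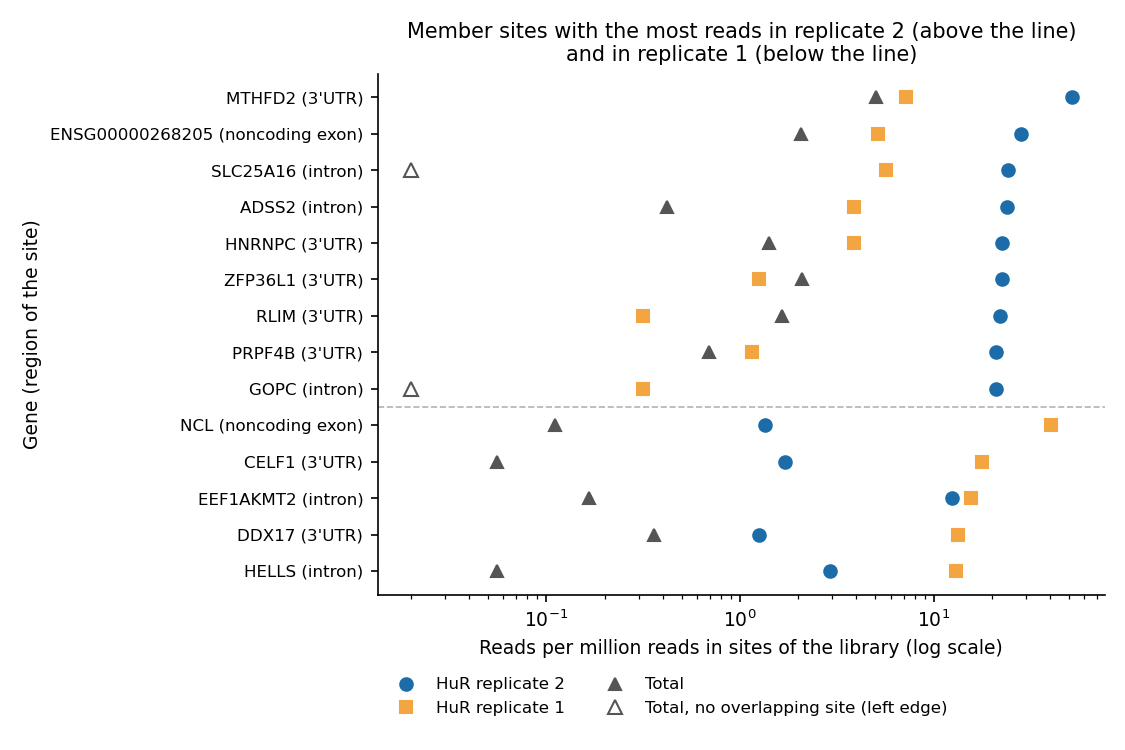
RPM on a log scale (x axis) of 9 of the 10 member sites with the most reads in replicate 2 and the 5 with the most in replicate 1 (y axis), in both HuR replicates and Total. Open triangles at the left edge are sites without a Total site. The upper sites are at 21.0 to 51.7 RPM in replicate 2, and the lower ones are highest in replicate 1.

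Member sites fell in 6005 genes, of which 5518 were protein-coding and 441 lncRNA genes. Protein-coding genes held 37986 members (90.6%). A single member was found in 1861 genes, and the median was 3. At the other end, 1161 genes had 10 or more members and held 64.4% of the members inside genes. A 3'UTR member was found in 2671 genes, 1760 of which also had an intronic one. Of 17859 protein-coding genes with any Total site, 30.9% had a member and 15.0% had one in the 3'UTR.

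The share of genes with a member rose with the Total reads over their exons. It was 0.450% (0.288 to 0.701) of 4226 protein-coding genes with no exonic Total read, 14.1% (13.1 to 15.1) of 4403 with at least 10 but fewer than 100 reads, 57.5% (56.4 to 58.7) of 7369 with at least 100 but fewer than 1000 and 78.8% (75.7 to 81.6) of 737 with at least 1000 but fewer than 10000. Only 3 of 19 genes with 10000 or more had one.

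**Figure D5:**
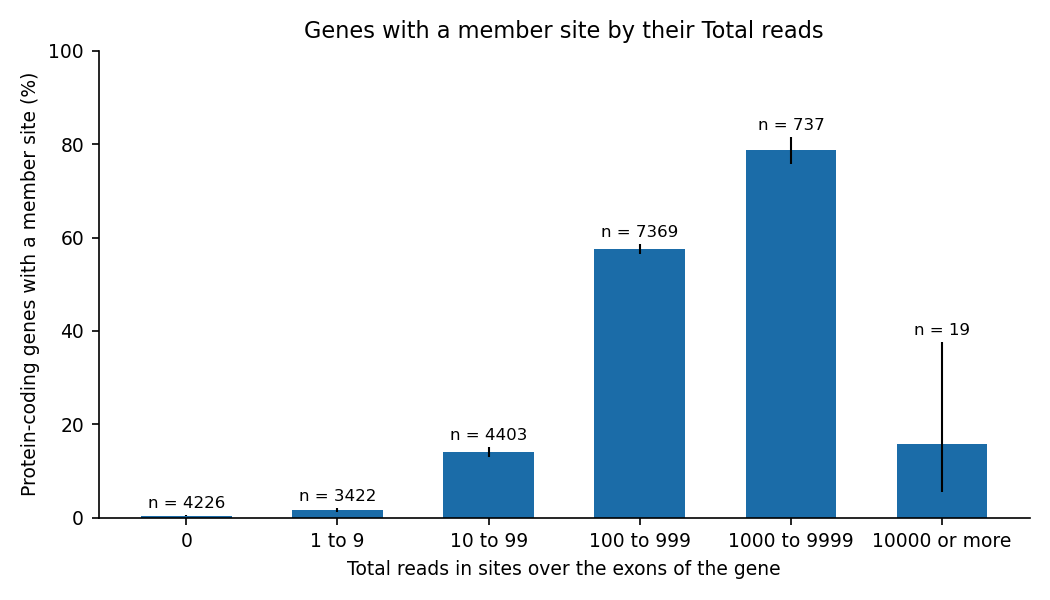
Share of protein-coding genes with 1 or more member sites in percent (y axis) by the reads of Total sites over their exons (x axis). Bars start at 0, lines are 95% Wilson intervals and n is the number of genes. The share rises from 0.450% to 78.8% and is 15.8% in the last class of 19 genes.

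The genes with the most member sites had most of them in introns. POLA1, a DNA polymerase subunit, had 111 members in 303 kb, 107 of them intronic. HNRNPC had 102 in 60.4 kb, or 16.9 per 10 kb, of which 87 were intronic and 5 in the 3'UTR. ANKRD17 had 100, WAC 99, HELLS 93, and ARIH1, DYRK1A and NFIA had 92 each. TRMT11 had 91, as had DLEU2, a lncRNA gene that hosts miRNAs. In each of these 10 genes, between 53 and 88 further deep sites overlapped background. Per 10 kb they ranged from 1.54 members in NFIA, a transcription factor gene of 598 kb, to 16.9 in HNRNPC.

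By 3'UTR members alone the order was another. ARIH1, a ubiquitin ligase gene, had the most, with 26 of its 92 members, ZNF207 had 23 of its 29 members there, and TOR1AIP2 21 of 29. FUBP1, whose product binds single-stranded nucleic acid, RC3H1, the Roquin gene that represses mRNAs through stem-loops, and HAPSTR1 had 17 each. ARIH1 had its highest site in an intron, with 367 reads in replicate 2, 4 in replicate 1 and none in Total, and the next in the 3'UTR, with 362, 14 and 5.

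ELAVL1 itself, at chr19:8023457-8070543 on the minus strand, had 18 deep sites. Of these, 5 were members and 13 met background, 6 of the latter in the 3'UTR. The strongest member, at chr19:8027285-8027341 in the 3'UTR, had 172 reads in replicate 2, 11 in replicate 1 and 9 in Total. Its neighbour at chr19:8027355-8027469 had 129, 15 and 34 reads. The other 3'UTR members had 25 and 32 reads in replicate 2, 8 and 7 in replicate 1, and at most 1 in Total. A single intronic member, at chr19:8032779-8032842, had 67 reads in replicate 2, 4 in replicate 1 and 2 in Total. The 30 bases at the modes of the first pair and of the intronic site carry short T runs.
ELAVL1 3'UTR, chr19:8027285-8027314, minus strand: aTTTgtagTTTTaaagattaaccctcaaag
ELAVL1 3'UTR, chr19:8027357-8027386, minus strand: TTTTgcTTTTgtatgaacactcagcagaaa
ELAVL1 intron, chr19:8032813-8032842, minus strand: TTTTcTTTactccatccaTTTgTTTTcact
HuR is known to bind its own mRNA. Reads of the transgene and of the endogenous gene cannot be told apart here.

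Lists of genes were read against the 30.9% of protein-coding genes. Of 27 mRNAs known as HuR targets, 17 (63.0%) had a member, and 14 had one in the 3'UTR. MDM2, a ubiquitin ligase gene, had the most with 25, of which 6 were in the 3'UTR and 18 in introns. Its highest sites had 198 reads in replicate 2 and 7 in replicate 1 in an intron, and 143 and 3 in the 3'UTR. XIAP, an inhibitor of caspases, had 7 of 13 members in the 3'UTR, and MCL1, an antiapoptotic factor, had 7 of 7. HIF1A, a hypoxia factor, had 3 of 10 there, and its strongest had 181 reads in replicate 2, 9 in replicate 1 and 5 in Total. EIF4E, the cap-binding factor, had 15 members, all intronic. CCNA2 had 3, all in the 3'UTR. No member lay in the other 10, among them ACTB, where all 7 deep sites met background, and VEGFA, where 2 of 3 did. FOS, CCNE1 and HMOX1 had no deep site.

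Other regulators of RNA were widely represented. Of 20 binders of AU-rich and U-rich elements, 15 (75%) had a member. After HNRNPC came PTBP2, the neuronal paralog of PTBP1, with 90, and the Pumilio gene PUM2 with 62. PTBP1 had 3. The ELAV paralogs had few, with 2 in ELAVL2 and none in ELAVL3 or ELAVL4, which had 0 and 1 deep sites. ZFP36L1 had 4, and ZFP36 and ZFP36L2, of the same decay-promoting family, had none. TIAL1 had 20 members, 9 of them in the 3'UTR, and TIA1 had 1.

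Of 12 partners and modifiers of HuR, 10 (83.3%) had a member. The importin TNPO1 had 45 and the exportin XPO1 had 32, mostly intronic. TNPO2 had none, and 16 of its 18 deep sites met background. The kinase CDK1 had 26, PRKCA 16, all intronic, and MAPK14 12. SET and ANP32A, which bind HuR, had 2 and 5.

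SR splicing factor genes had a member in 12 of 14 cases (85.7%). TRA2B had 30, of which 16 were intronic and 5 in the 3'UTR. In SRSF1, SRSF2 and SRSF6, all members, 6, 9 and 5, were in the 3'UTR, as were 11 of 14 in SRSF10. Genes of mRNA decay had one in 25 of 38 cases (65.8%). CNOT2 and CNOT1, of the deadenylase complex, had 57 and 43, and the nuclear exonuclease gene XRN2 had 47, all intronic. XRN1, its cytoplasmic counterpart, had 8. The decapping enzyme DCP2 had 6 of 10 in the 3'UTR, while UPF1 and EXOSC10 had none.

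Cytosolic ribosomal protein genes had the lowest share, with 36 of 79 (45.6%), and a median of 0 members. RPS24 had 12 and RPL37A 11, and the highest site of RPS24 had 173 reads in replicate 2, 5 in replicate 1 and 57 in Total. All 6 long noncoding RNAs listed had a member. No share over all lncRNA genes was counted to set beside this, and the 6 had 324 to 7579 exonic Total reads. NEAT1, the scaffold of paraspeckles, had 17, and 30 of its 51 deep sites met background. MALAT1, a nuclear speckle RNA, had 3, and 50 of its 53 deep sites met background. The highest MALAT1 member had 473 reads in replicate 2, 18 in replicate 1 and 6 in Total, while another had 29, 102 and 266. The 6 lists of protein-coding genes were above the 30.9% of all protein-coding genes with a Total site. All but 1 gene of the lists had such a site. Most listed genes had 100 or more exonic Total reads. Of all protein-coding genes with at least 100 but fewer than 1000, 57.5% had a member. The share was 78.8% with at least 1000 but fewer than 10000. Ribosomal protein genes (45.6%) were below both shares. HuR targets (63.0%), decay genes (65.8%) and AU-rich and U-rich binders (75%) lay between. HuR partners (83.3%) and SR genes (85.7%) were above, but these lists hold only 12 and 14 genes. No interval was computed for the shares of the lists, so small differences from the other shares are not read further. The share of genes with a member also moved with Total reads, and the part of RNA level in the lists' shares was not tested.

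Members at the replicate 2 read limit of the rule resembled sites just outside it. With 25 reads in replicate 2 there were 2048 members, with a median T content of 42.9%, 77.4% in introns and 55.7% in Total. Sites with 24 reads that met every other condition numbered 2245, with 42.9%, 78.2% and 55.3%. At the replicate 1 limit, T content was close but the share in Total was lower outside the rule. Members with 2 reads in replicate 1 had 45.5% T and 56.8% in Total, and the 24087 sites with 1 read had 45.9% and 50%. The minimum of conversion locations mattered little, since 1153 members had exactly 2, and 670 sites with 1 location and 1340 with none met the other conditions.

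As a check of the cell line, Total reads over exons were 2351 for VIM, 134 for KRT8, 47 for KRT18, 24 for PAX2 and 4 for NEFM, all named for HEK293. The hepatocyte gene ALB had 41, the leukocyte gene PTPRC 3 and the erythroid gene HBB none. NEFM was thus near the level of the other cell types, and ALB was above PAX2.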

How the data were processed

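The 6 libraries were sequenced by the authors as single 50 bp reads, stripped of adapters and mapped to hg19 with Bowtie, as the processing notes also name. PARalyzer used reads that mapped to 1 place and differed from it at no more than 2 bases, all T to C. Each site was deposited with its raw counts of reads, conversion locations and conversion events, which the authors left unscaled. Whether they removed PCR duplicates is not stated. The deposited clusters also give a mode location and a mode score. The score was not used here.

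Positions were read as 1-based, and all 41915 member sequences matched GRCh37. Regions were assigned by the site midpoint on the strand, from GENCODE release 44 on GRCh37, with coding sequence first, then 3'UTR, 5'UTR, exons of noncoding transcripts and introns. RPM are reads scaled to 1000000 reads in the sites of a library, and floors are 3 reads. Shares carry 95% Wilson intervals. No test was made, since sites are not replicates.

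The members and the 7 gene lists were chosen with earlier results of these data known. Named genes are the 10 with the most members, the 10 and 5 sites with the most reads in replicates 2 and 1, the 5 largest counts of 3'UTR members with ties, ELAVL1 and genes of the lists. Some genes that the rule names are not reported here.

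Python 3.11.15, pandas 2.3.3, numpy 2.4.6, scipy 1.17.1, pysam 0.24.0, samtools 1.23.1 and matplotlib 3.10.9 were used. Overlaps were tested on simulated data, where all 4000 matched a comparison of every pair. Alternatives changed the read minimums, background, overlap, annotation and motif. Published site tables and the slice and Total clusters were not used here.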

Additional observations from a re-analysis of the deposited data

How the results depend on the processing

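Each share or median was recomputed under 15 to 17 alternatives and the count under 14. The count was called moved where it left a fixed fold range around the main value. A share or median was called moved where it left the main value by more than an SD. That SD was taken between the values of the HuR replicates alone. Of 92 values, 77 did not move. This SD is wide, since replicate 1 alone gave few sites, so it is a weak standard.

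The number of members was 66002 with a replicate 1 minimum of 1 read and 12351 with 5 reads, and 97216, or 14592, with a replicate 2 minimum of 10, or 50, reads. Leaving out a HuR replicate gave 330 to 95785 sites, with 51.5% to 75.4% in introns, 12.5% to 20.0% in 3'UTRs, a median T content of 35.5% to 45.5%, ATTTA in 8.79% to 19.2% and a Total site at 53.6% to 64.8%. The lower T and intron values and the 330 sites were those without HuR replicate 2. TTTTT in place of ATTTA gave 39.9%. The share in Total was 72.7% with a replicate 1 minimum of 5 reads, 55.5% with a replicate 2 minimum of 10, 48.4% for single Total sites of 2 or more reads and 25.6% for those of 5 or more. The cause was not tested.

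No paired analysis was possible because only HuR has replicates and no result comes from a test. Depth limits the absence from G35 and G45 most, and single slices and a single Total library have no replicate error.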
